A study of Mus musculus with 32 samples.

Results

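The Sox2 locus was examined in mouse genome build mm9 on chromosome 3 from 34540000 to 34665000, a window of 125 kb that holds the Sox2 start near 34548927 and the downstream control region about 105 kb away. Every peak that overlapped this window by at least 1 bp was taken, in each of the 26 deposited peak lists. There were 87 such peaks among 387563, or 0.0224%. They came from 18 lists, and 8 lists held none.

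The peaks come from ChIP-seq, in which protein-bound DNA is immunoprecipitated and sequenced, in J1 mouse embryonic stem (ES) cells grown in serum with LIF. Antibodies against 7 targets were used in Taf5l-KO, Taf6l-KO and wild-type J1 cells, with 1 library for each antibody and genotype. The targets were Oct4, Myc, H3K4me3, H3K9ac, RNA polymerase II (RNAP) and its forms phosphorylated on serine 5 (RNAP-ser5) or serine 2 (RNAP-ser2). Streptavidin pull-downs of biotin-tagged TAF6L (TAF6L-FB, lines 15 and 9) and TAF5L (TAF5L-FB, lines A5 and A6) came from J1 cells labelled WT, with BirA cells as the control. The labels do not say whether each knockout is 1 clone. The 21 antibody libraries held 1702363 to 22968606 unique tags and the 5 streptavidin libraries 18292747 to 27775010. Within a genotype all 7 antibody lists were called against an input of the same tag number, 6245652 in Taf5l-KO, 5923469 in Taf6l-KO and 7771755 in wild-type cells. The sample labels name an input for wild-type cells but none for either knockout. With 1 library per antibody and genotype no test between genotypes was possible, so every difference between genotypes below has no replicate check. A place that is not listed fell below the peak threshold, which does not show that signal was absent.

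Sox2 encodes an HMG-box transcription factor that binds DNA beside Oct4, a POU-family factor, at many enhancers of pluripotent cells. Its gene has enhancers close by, among them SRR2 just downstream of the gene, and a distal cluster, the Sox2 control region, on which most Sox2 transcription in mouse ES cells depends. TAF5L and TAF6L are subunits of the SAGA coactivator, which carries a histone acetyltransferase that acts on H3 lysines including lysine 9. H3K4me3 marks active promoters and H3K9ac active promoters and enhancers. Serine 5 phosphorylation of polymerase is known from the early part of transcription and serine 2 phosphorylation from elongation.

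The 250 bases before the Sox2 start are shown because H3K4me3 and RNAP peaks spanned the start in all 3 genotypes. They were taken from RefSeq, build GRCm38.p6, chr3:34649745-34649994 on the plus strand, and these positions must not be set beside the mm9 positions of the peaks. Capitals mark the motifs found.

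Sox2 promoter: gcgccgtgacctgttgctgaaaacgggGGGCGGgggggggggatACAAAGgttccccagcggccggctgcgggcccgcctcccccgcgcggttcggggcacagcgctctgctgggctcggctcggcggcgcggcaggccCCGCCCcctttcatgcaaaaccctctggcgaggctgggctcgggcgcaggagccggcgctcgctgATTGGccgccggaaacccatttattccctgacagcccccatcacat

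The stretch was rich in G and C, at 72% against a median of 52.4% over 32851 RefSeq promoters of the same length. Exact matches were sought on both strands, and none of those found overlapped each other. The Sox core ACAAAG began 206 bases before the start and occurred in 16.5% of all promoters. GGGCGG began 223 bases before the start and, as its reverse complement, 111 bases before it, and occurred in 32.7%. CCAAT lay on the minus strand 46 bases before the start and occurred in 33.8%. The octamer ATGCAAAT (1.60% of promoters), the E-box CACGTG (6.02%) and TATAAA (12.4%) had no exact match in this window.

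Oct4 was listed at the same 3 places in every genotype. The first lay 4.05 kb downstream of the start, from 34552890 to 34553086 in Taf5l-KO, 34552881 to 34553064 in Taf6l-KO and 34552895 to 34553063 in wild-type cells. The second lay 18.6 kb downstream, at 34567423 to 34567621, 34567476 to 34567627 and 34567461 to 34567614 in the same order of genotypes. The last lay in the control region, 108 kb downstream, at 34656866 to 34657079, 34656924 to 34657088 and 34656889 to 34657121. The summits of the 3 genotypes fell within 26, 29 and 22 bp of each other at the 3 places. None of the 3 wild-type peaks was lost, while 40.9% of all wild-type Oct4 peaks had no Taf5l-KO peak and 53.5% no Taf6l-KO peak. The wild-type list was also split into 10 bands by rank of fold enrichment, with tied peaks kept together. In the band of the control-region peak 10.1% were lost in Taf5l-KO and 12.8% in Taf6l-KO, and in the band of the other two 28.3% and 42.4%.

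The order of the 3 Oct4 places was not the same in the 3 lists. Fold enrichment, the authors' ratio of pileup to local background for each peak, was compared only within a list. In Taf5l-KO the place at 4.05 kb led with 19.5, followed by 8.01 at 18.6 kb and 6.81 in the control region. In Taf6l-KO the same order held, with 12.7, 7.32 and 5.40. In wild-type cells the control region led with 14.7, and the places at 18.6 kb and 4.05 kb had 9.99 and 9.62. Thus the nearest place had 2.86 and 2.35 times the fold enrichment of the control region in the Taf5l-KO and Taf6l-KO lists, and 0.656 times in the wild-type list.

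Ranks within the lists showed the same pattern. The control-region peak ranked at 70.8% from the top of 3034 peaks in Taf5l-KO and at 93.9% of 2049 in Taf6l-KO, against 7.76% of 2564 in wild-type cells. The peak at 4.05 kb ranked at 3.69% in Taf5l-KO and 13.1% in Taf6l-KO, against 28.3% in wild-type cells. The peak at 18.6 kb ranked at 50.1% and 61.3% in the knockouts, against 27.4% in wild-type cells. Of the 215 wild-type Oct4 peaks in the strongest band that were kept in both knockouts, none other than the control-region peak ranked as low as it in both. With ranks and bands taken on −log10 q instead, 2 others of 220 ranked as low in both. In each knockout alone, the control-region peak included, 14 of 232 kept peaks of the fold-enrichment band ranked as low in Taf5l-KO and 8 of 225 in Taf6l-KO. The median rank of these kept peaks was 9.56% in Taf5l-KO and 15.5% in Taf6l-KO. For the place at 4.05 kb, 4 others of 141 kept peaks in its band ranked as high in both knockouts. The place at 18.6 kb lay in the same band, and 9 others of the 141 ranked as low as it in both. With ranks and bands on −log10 q, 3 others of 164 ranked as low as the place at 18.6 kb in both.

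**Figure D1:**
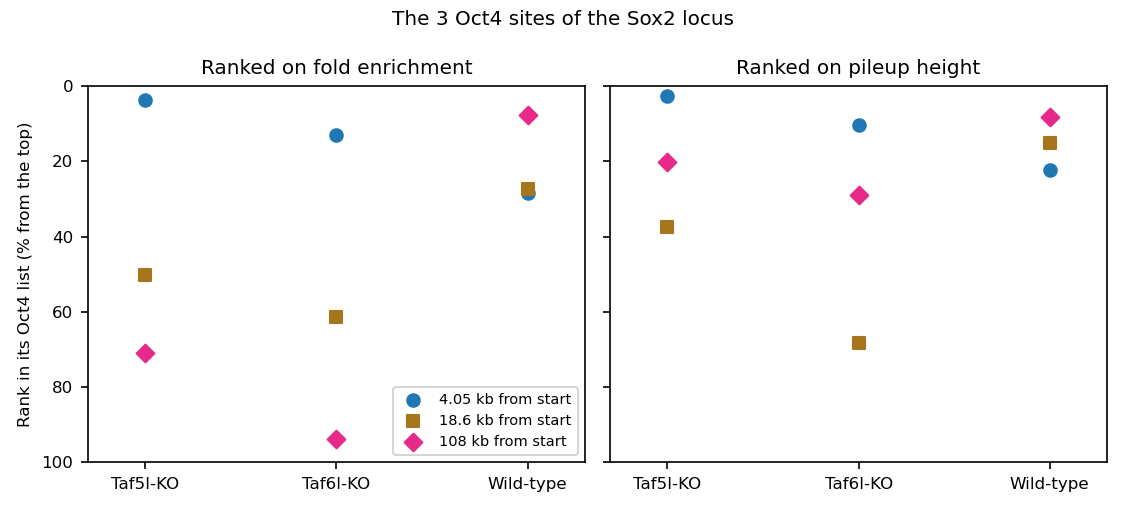
Rank of the 3 Oct4 places of the Sox2 locus within the Oct4 list of each genotype (vertical axis, percent from the top, strongest at the top; 1 library each), by fold enrichment on the left and by pileup height on the right. The control-region place (diamonds) stands at 70.8% and 93.9% in the knockouts and 7.76% in wild-type cells by fold enrichment, and at 20.2%, 28.9% and 8.11% by pileup.

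The size of the shift in the control region depended on the measure. Pileup height, the number of overlapping fragments, was also compared only within a list, because the Oct4 lists had been scaled to different depths, 6245652 tags in Taf5l-KO, 5923469 in Taf6l-KO and 7771755 in wild-type cells. By pileup the control-region peak ranked at 20.2% and 28.9% in the knockouts and 8.11% in wild-type cells. With the bands cut anew by rank of pileup, 11 others of the 233 peaks in its band kept in both knockouts ranked as low in both. Pileup divided by fold enrichment, which follows the local background, was 2.85 at this peak and 1.95 at 4.05 kb in the Taf5l-KO list. The same quotients were 2.81 and 1.76 in the Taf6l-KO list, and 1.80 and 1.90 in the wild-type list. The change of order between these places was also seen by pileup, since the pileup at 4.05 kb was 1.95 and 1.47 times that of the control region in the knockouts and 0.690 times in wild-type cells. By pileup the place at 18.6 kb was the lowest of the 3 in both knockouts, with 15.0 in the Taf5l-KO list and 9.83 in the Taf6l-KO list. Its pileup ranked at 37.4% in Taf5l-KO and 68.3% in Taf6l-KO, against 15.2% in wild-type cells. In its band by pileup, 2 others of 203 peaks kept in both knockouts ranked as low in both. A drop in both knockouts was thus not particular to the control region.

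A further Oct4 peak was listed in the control region of Taf5l-KO, between 34655765 and 34655894 (fold enrichment 7.73, rank 53.0%). It was the 1 gained peak among the 4 of Taf5l-KO, and Taf6l-KO gained 0 of 3. Over the whole lists 50.1% of Taf5l-KO peaks and 41.7% of Taf6l-KO peaks had no wild-type peak.

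Both TAF6L-FB lines had a single peak in the window, at the control-region Oct4 place. In line 15 it ran from 34656858 to 34657157 with a fold enrichment of 4.53, rank 335 of 1140. In line 9 it ran from 34656809 to 34657133 with 3.89, rank 468 of 628. The 2 summits lay 33 and 63 bp from the wild-type Oct4 summit. The median fold enrichment of the lists was 4.22 in line 15 and 4.38 in line 9, so the peak stood above it in line 15 and below it in line 9. No TAF5L-FB or BirA peak fell in the window, but those lists were short, with 136 peaks in line A5, 7 in line A6 and 24 in BirA. BirA peaks rest on a fragment size of 49 bp, against 300 bp in the tagged lines.

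In wild-type cells this place was listed for Oct4, H3K4me3 and RNAP and for TAF6L-FB in both lines, but not for H3K9ac. Lack of H3K9ac was the common state, since 38 of 2564 wild-type Oct4 peaks (1.48%) overlapped it. Genome-wide, 49 of 2564 wild-type Oct4 peaks (1.91%) overlapped both TAF6L-FB lines, and 11 (0.429%) also overlapped H3K4me3 and RNAP. Of these 11, 9 did not overlap H3K9ac, and 5 were kept as Oct4 peaks in both knockouts. Over the whole wild-type Oct4 list 40.9% were lost in Taf5l-KO and 53.5% in Taf6l-KO. The share of that list kept in both was not taken, so the 5 of 11 cannot be set beside it. The Oct4 place at 4.05 kb overlapped H3K4me3 and RNAP in all 3 genotypes, and RNAP-ser2 in Taf5l-KO. The wild-type Oct4 peak at 18.6 kb was overlapped by the Oct4 peaks of both knockouts and by no peak of another antibody in any genotype. In Taf5l-KO an RNAP peak ended at 34567424, inside the edge of the Oct4 peak of that genotype. Myc, a basic helix-loop-helix transcription factor, was not listed anywhere in the window in Taf5l-KO, Taf6l-KO or wild-type cells, whose lists held 34, 23 and 538 peaks. Of the whole wild-type Myc list 96.1% had no Taf5l-KO peak and 98.3% no Taf6l-KO peak, and 41.2% of Taf5l-KO and 60.9% of Taf6l-KO Myc peaks had no wild-type peak. The Myc lists rest on fragment sizes of 51 bp in Taf5l-KO, 50 bp in Taf6l-KO and 95 bp in wild-type cells, with tags of 50 bp. The part of fragment size in these shares was not tested.

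**Figure D2:**
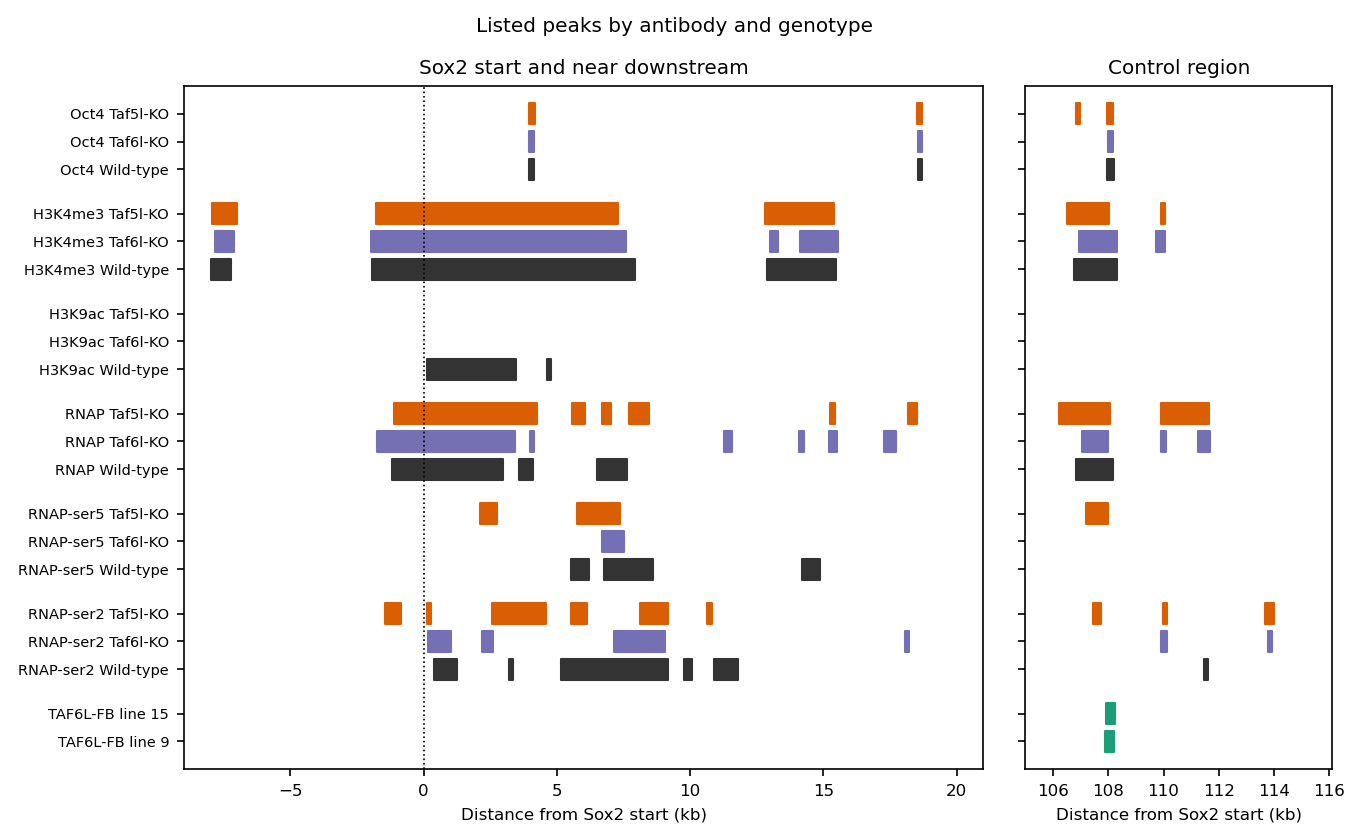
Listed peaks along the Sox2 locus (horizontal axis, kb from the Sox2 start, dotted line) for each antibody and genotype, from 9 kb before to 21 kb after the start on the left and over the control region on the right; each bar is 1 peak, Taf5l-KO in orange, Taf6l-KO in purple, wild type in black and the TAF6L-FB lines in green. The right panel begins at 105 kb, and peaks between the panels, among them the Taf6l-KO RNAP peak at 95.1 kb, are not drawn. H3K9ac bars appear only in wild-type cells and both TAF6L-FB bars sit at the control-region Oct4 place.

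H3K4me3 formed 1 wide domain over the Sox2 start. It measured 9074 bp in Taf5l-KO (34547155 to 34556228), 9553 bp in Taf6l-KO (34546958 to 34556510) and 9872 bp in wild-type cells (34546986 to 34556857). These were the 5th, 7th and 14th widest peaks of lists of 32098, 29463 and 32370. Their fold enrichments of 10.5, 12.5 and 10.2 ranked at 17.4%, 12.3% and 12.1%, so the domain ranked higher by width than by fold enrichment. The broad lists give no summit, so this does not compare heights. Among the 14 wild-type H3K4me3 peaks at least this wide, all were overlapped in both knockouts, as were all 3237 peaks in its band of fold enrichment.

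The other wild-type H3K4me3 peaks were also kept. They began at -7.99 kb, upstream of the gene (34540942 to 34541694), 12.9 kb downstream (34561807 to 34564394) and in the control region (34655695 to 34657232). All 4 peaks were overlapped in Taf5l-KO and in Taf6l-KO, where 15.4% and 19.2% of all wild-type H3K4me3 peaks were not. At 12.9 kb the mark was 1 peak of 2588 bp in Taf5l-KO and in wild-type cells, and was split into 309 and 1417 bp in Taf6l-KO. In the control region it measured 1532 bp, 1364 bp and 1538 bp in Taf5l-KO, Taf6l-KO and wild-type cells, at ranks of 52.7%, 47.8% and 58.0%. Knockout peaks without a wild-type peak numbered 3 of 7 in Taf5l-KO and 2 of 7 in Taf6l-KO, beside 14.2% and 10.5% over the whole lists. They were short, at 129 to 352 bp, and ranked between 76.8% and 93.4% from the top. The shortest, in Taf6l-KO, was as long as the fragment size of its library. One of these gained peaks, from 34591023 to 34591374, was listed in Taf5l-KO alone, and the others were 2 places listed in both knockouts.

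H3K9ac was listed at Sox2 in wild-type cells alone. The Taf5l-KO and Taf6l-KO lists, of 110 and 898 peaks, held none in the window. The wild-type list of 4131 held a peak from 34549047 to 34552380, which began 120 bp after the start, and a short one of 171 bp from 34553547 to 34553717. Loss of both was the common outcome, since 97.5% of all wild-type H3K9ac peaks had no Taf5l-KO peak and 80.8% no Taf6l-KO peak. The larger peak had a fold enrichment of 5.17, rank 1481, and in its band of the list 98.1% were lost in Taf5l-KO and 80.4% in Taf6l-KO. Unique tags for H3K9ac numbered 22968606 in Taf5l-KO, 18739413 in Taf6l-KO and 17460064 in wild-type cells. After scaling to the input the lists were called at 6245652, 5923469 and 7771755 tags, fewer in both knockouts, and the part of depth in the loss was not tested. Of the peaks that the knockout lists did hold, 4.55% in Taf5l-KO and 10.2% in Taf6l-KO had no wild-type peak.

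By width the Sox2 H3K9ac peak, at 3334 bp, was the 8th of the wild-type list. Wide peaks were kept more often in Taf6l-KO, where 217 of the 414 widest peaks were overlapped and 197 (47.6%) were lost. In Taf5l-KO 29 of the 414 were overlapped and 93.0% lost. Of the 8 widest, 1 was overlapped in Taf5l-KO and 4 in Taf6l-KO, and the Sox2 peak was among those lost in both. The comparison by width was chosen after the values were seen. No H3K9ac peak was listed in the control region in any genotype.

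**Figure D3:**
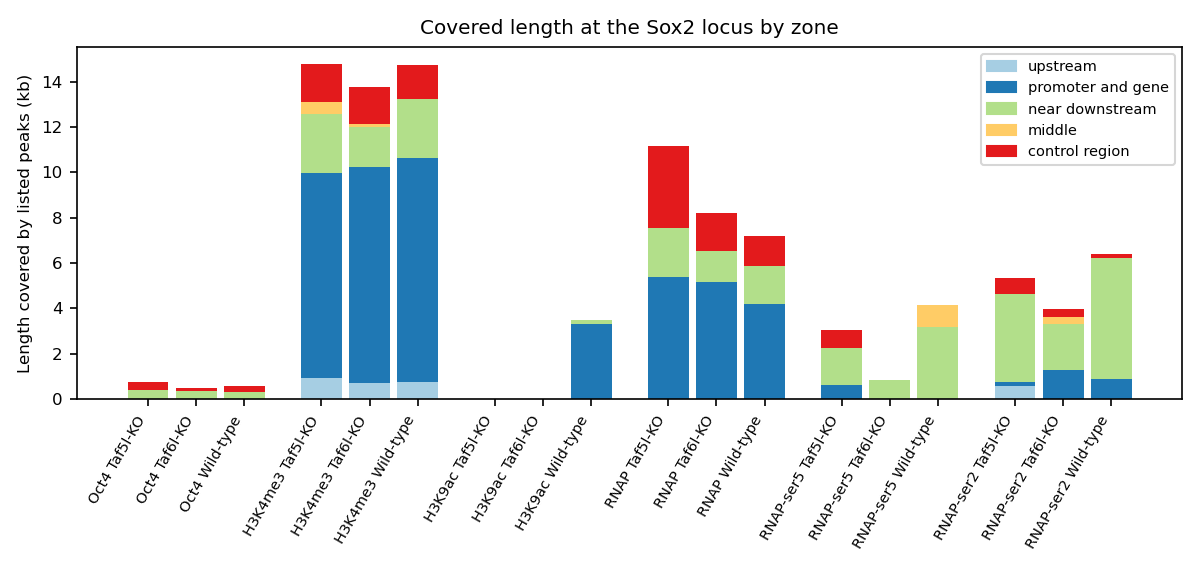
Length of the Sox2 window covered by listed peaks (vertical axis, kb) in each list, stacked by zone, with the Myc lists, which held no peak there, left out. Zones are upstream (more than 1 kb before the start), promoter and gene (to 3 kb after it), near downstream (to 20 kb), middle (to 95 kb) and control region; H3K4me3 covers 14.8, 13.8 and 14.8 kb in Taf5l-KO, Taf6l-KO and wild-type cells, and H3K9ac 3.50 kb in wild-type cells alone.

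RNAP covered the Sox2 start in all 3 genotypes. The peak there measured 5391 bp in Taf5l-KO (34547806 to 34553196), 5150 bp in Taf6l-KO (34547195 to 34552344) and 4182 bp in wild-type cells (34547722 to 34551903). Its fold enrichments of 4.60, 4.48 and 4.49 ranked at 54.5%, 61.8% and 45.8%, while by width it ranked at 1.25%, 0.655% and 1.16%. Here too no summit is given, so its height is not known. Of the 4 wild-type RNAP peaks 0 were lost in Taf5l-KO and 1 in Taf6l-KO, beside 47.5% and 39.6% of the whole wild-type list. Wide RNAP peaks were mostly kept: of the 341 wild-type peaks at least as wide as the one at the start, 333 were overlapped in Taf5l-KO and 337 in Taf6l-KO. The lost peak ran from 34555423 to 34556568, downstream of the gene, and the nearest Taf6l-KO peak was 2366 bp away.

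More RNAP peaks were listed in the knockouts, 8 in Taf5l-KO and 10 in Taf6l-KO against 4 in wild-type cells. Those with no wild-type RNAP peak numbered 5 of 8 and 7 of 10, beside 27.3% and 33.2% over the whole knockout lists. The libraries had been scaled to 6245652, 5923469 and 5174150 tags in Taf5l-KO, Taf6l-KO and wild-type cells, and the part of depth in these counts was not tested. Taf5l-KO gained peaks from 34554478 to 34554982, from 34556623 to 34557383 and from 34567105 to 34567424. In Taf6l-KO the gained peaks began at 34560210, 34562991, 34566184 and, 95.1 kb downstream, 34644072, and measured 279, 208, 453 and 131 bp. Only 1 such place outside the control region was shared by both knockouts, 15.2 kb downstream (34564157 to 34564376 in Taf5l-KO, 34564133 to 34564441 in Taf6l-KO). In the control region the RNAP peak at the Oct4 place measured 1866 bp in Taf5l-KO, 947 bp in Taf6l-KO and 1328 bp in wild-type cells. A second stretch 110 to 111 kb downstream was listed in the knockouts, as 1 peak of 1742 bp in Taf5l-KO and as peaks of 161 and 409 bp in Taf6l-KO.

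RNAP-ser5 was not listed at the start in any genotype. Taf5l-KO had 3 peaks, from 34551051 to 34551666, from 34554663 to 34556281 and, in the control region, from 34656114 to 34656906. Taf6l-KO had 1 peak, from 34555608 to 34556449, from a library of 1702363 unique tags, where Taf5l-KO was scaled to 6245652 and wild type to 3871824. Wild-type cells had 6, of which the strongest lay between 34554438 and 34555117 (fold enrichment 3.98, rank 21.7%). The only stretch common to all 3 genotypes began 5.74 kb (Taf5l-KO), 6.68 kb (Taf6l-KO) and 6.78 kb (wild type) after the start. Of the 6 wild-type peaks 4 were lost in Taf5l-KO and 5 in Taf6l-KO, beside 73.8% and 83.5% of the whole list. Lost in both were the peaks beginning at 34563116, 34575706, 34578066 and 34582348, which ranked between 60.8% and 82.6%, and Taf6l-KO also lacked the strongest peak. The nearest Taf6l-KO peak to it was 491 bp away. Of the lost peaks, the one at 34575706 was only as long as the fragment size of the wild-type library, 141 bp. Taf5l-KO gained 2 of its 3 peaks and Taf6l-KO 0 of 1, beside 48.3% and 52.6%.

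RNAP-ser2 extended past the gene in every genotype. The widest peak ran from 34551479 to 34553535 in Taf5l-KO (2057 bp), from 34556082 to 34557974 in Taf6l-KO (1893 bp) and from 34554078 to 34558109 in wild-type cells (4032 bp). In total 5.35, 3.94 and 6.39 kb of the window were covered. The RNAP-ser2 lists had been scaled to 5390622, 3842867 and 6295522 tags in the same order of genotypes. These depths ran in the same order as the covered lengths, and the part of depth in widths, lengths and counts was not tested. Near the start Taf5l-KO had a short peak from 34549045 to 34549202, 118 bp after it, which was the strongest RNAP-ser2 peak of the window in that list (fold enrichment 4.90, rank 8.70%). That peak was only as long as the fragment size of its library, 158 bp. The peaks nearest the start in Taf6l-KO (34549107 to 34549957) and wild-type cells (34549324 to 34550196) ranked 26552 of 42451 and 32727 of 43039. Of the 6 wild-type peaks 4 were lost in Taf5l-KO and 4 in Taf6l-KO, beside 63.4% and 61.3% over the list. Lost in both were 34558688 to 34558976, which was the strongest RNAP-ser2 peak of the window in wild-type cells (rank 4946), 34559822 to 34560720 and, in the control region, 34660378 to 34660539. Taf5l-KO also lacked 34549324 to 34550196, with its own nearest peak 122 bp away, and Taf6l-KO lacked 34552134 to 34552269. Those gained numbered 6 of 9 in Taf5l-KO and 6 of 8 in Taf6l-KO, beside 49.8% and 56.7%. Apart from the peak just after the start, those of Taf5l-KO began at 34547480, 34559570, 34656391, 34658894 and 34662617. Those of Taf6l-KO began at 34551111, 34566997, 34581163, 34617263, 34658842 and 34662705, so the 2 last in each knockout were at shared places of the control region. The gained peaks at 34559570 and 34658894 in Taf5l-KO were also 158 bp long. Those at 34566997 and 34617263 in Taf6l-KO were as long as the fragment size of that library, 133 bp. The wild-type peak from 34552134 to 34552269 likewise equalled its fragment size, 136 bp.

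**Figure D4:**
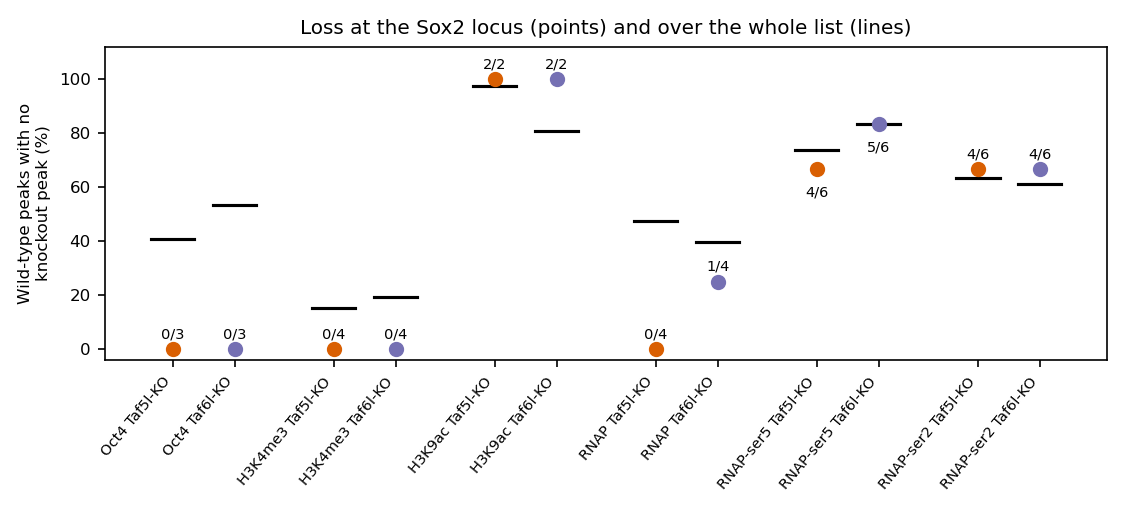
Share of wild-type peaks in the Sox2 window with no overlapping knockout peak (points, percent, with lost over all wild-type peaks of the window as numbers) beside the same share over the whole wild-type list (black lines), for each antibody and knockout, 1 library each. Oct4 and H3K4me3 stand at 0%, H3K9ac at 2 of 2 lost in both knockouts, and RNAP-ser5 and RNAP-ser2 near their lines.

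Summed over the 7 antibodies, the window held 31 peaks in Taf5l-KO, 29 in Taf6l-KO and 25 in wild-type cells. The whole lists ran the other way, with 109632, 118618 and 157378 peaks. The largest gap was in RNAP-ser5, with 22190, 17000 and 45366 peaks at scaled depths of 6245652, 1702363 and 3871824 tags. Only Oct4 in Taf5l-KO had a longer list than in wild-type cells, 3034 against 2564 peaks. The part of depth in these totals was not tested. Within the window the control region differed most in number, with 10 and 9 peaks in the knockouts against 4 in wild-type cells. The covered length there was 7.14, 3.83 and 3.26 kb. The promoter and gene held 4 peaks in each genotype, and the near downstream zone 13, 12 and 13. Between 20 and 95 kb there were 2, 3 and 3 peaks, each under 500 bp.

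Peaks that overlapped none of the 7 wild-type lists numbered 7 of 31 in Taf5l-KO (22.6%) and 10 of 29 in Taf6l-KO (34.5%), beside 19.4% and 22.0% over the whole lists of the 7 antibodies. The share in Taf5l-KO was thus near that of the whole lists. These peaks made up 10 places, and 4 of them were found in at least 2 lists. The most recurrent, chosen after its values were seen, ran from 34658670 to 34659059, 110 kb downstream in the control region. H3K4me3, RNAP and RNAP-ser2 peaks of both knockouts overlapped it, 6 lists in all, and the nearest wild-type peak was 1319 bp away. Only 5 of these lists had a peak outside all wild-type lists. The RNAP peak of Taf5l-KO ran on to 34660559 and overlapped the wild-type RNAP-ser2 peak from 34660378 to 34660539. Its RNAP-ser2 peak ranked at 19.2% in Taf5l-KO and 11.1% in Taf6l-KO, its RNAP peak at 81.8% and 41.2%, its H3K4me3 peak at 76.8% and 81.6%. Most were short, at 158 and 218 bp for RNAP-ser2, 1742 and 161 bp for RNAP, and 156 and 296 bp for H3K4me3. The RNAP-ser2 peak of Taf5l-KO was as long as the fragment size of its library, 158 bp. Genome-wide, 12.6% of Taf5l-KO and 9.10% of Taf6l-KO H3K4me3 peaks lay outside all 7 wild-type lists. Among these 4041 Taf5l-KO peaks 4 were overlapped in the other 5 lists of this kind, and likewise 4 of 2681 in Taf6l-KO, this place included. RNAP-ser2 was also listed in both knockouts 114 kb downstream (34662617 to 34662916 in Taf5l-KO, 34662705 to 34662840 in Taf6l-KO). H3K4me3 was listed in both 67.9 kb downstream (34616811 to 34616976 and 34616837 to 34616965). The lists of a knockout were called against an input of the same tag number, and the part of the inputs in these places was not tested.

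The presence or absence of a peak in the 26 lists was also compared between the H3K4me3 domain at the Sox2 start and the 32366 wild-type H3K4me3 peaks elsewhere. The domain was overlapped in 16 lists. It lacked Myc in every genotype, H3K9ac in both knockouts, and all streptavidin lists. The same calls in all 26 lists were found at 7 others (0.0216%). The nearest in rank of wild-type fold enrichment was a peak of 7227 bp on chromosome 2 (29917055 to 29924281). Next came 5440 bp on chromosome 10 (66558671 to 66564110) and 4624 bp on chromosome 13 (35830277 to 35834900). All 3 were among the widest of the list, ranking 44th, 176th and 319th by width. Wide peaks can overlap more lists, so the likeness is a description. No gene names were given to them because no mm9 annotation was used here.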

How the data were processed

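Peak lists of 26 immunoprecipitated libraries were used. The submitters' processing notes name Bowtie2 2.3.2, deepTools 2.5.3 and build mm9, without their order. MACS2 2.1.1.20160309 called each library against an input, with at most 1 tag per position and a q cutoff of 0.05, per the file headers. Broad linking (second cutoff 0.1) was on for H3K4me3, H3K9ac and the RNAP antibodies and off for the rest, and the larger library was scaled to the smaller, per the file headers. Broad peaks can join nearby signal, so widths and counts depend on that linking. The deposited lists give each peak's pileup (signal), its fold enrichment (ratio), and its −log10 p and −log10 q. These authors' values were compared only within a list, since depth differed between lists.

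With Python 3.11.15 and pandas 2.3.3, 2525 peaks outside the assembled chromosomes were set aside. Ranks were taken on fold enrichment. A peak was kept, or not gained, where at least 1 bp overlapped. Overlap steps were tested on simulated lists. Line 15 and line A5 are replicate 1 of their proteins. The members, zones, lists and comparisons were chosen with earlier results of these data known. All peaks of narrow lists, and of broad lists those at the start, the strongest, and those lost or gained, were to be named, with the rest as counts. Pathway genes were not placed, and sequences under the peaks not shown, because no mm9 annotation or genome was used here.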

Additional observations from a re-analysis of the deposited data

How the results depend on the processing

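At a stricter −log10 q (5 or more), all Oct4 peaks of the window remained, but H3K4me3 was left with 3, 2 and 1 peaks in Taf5l-KO, Taf6l-KO and wild-type cells, RNAP-ser2 with 0, 1 and 0, and H3K9ac in wild-type cells, RNAP and RNAP-ser5 in all genotypes and both TAF6L-FB lines with 0. Kept wild-type H3K4me3 peaks were then 1 of 1 in both knockouts, gained ones 1 of 2 in Taf6l-KO, and gained RNAP-ser2 peaks 1 of 1 in Taf6l-KO. Apart from Oct4 and H3K4me3, no antibody had a wild-type peak left to compare. With 50% of the peak covered, kept peaks numbered 1 of 6 in Taf5l-KO and 0 of 6 in Taf6l-KO for RNAP-ser5, and 1 of 6 in each for RNAP-ser2. Counting peaks within 1000 bp, they numbered 2 of 6 in Taf6l-KO for RNAP-ser5, and 5 of 6 and 4 of 6 in Taf5l-KO and Taf6l-KO for RNAP-ser2. With peaks less than 1000 bp apart merged, 1 of 5 RNAP-ser5 peaks was kept in Taf5l-KO. Both of these settings gave 0 gained Oct4 and 3 gained RNAP peaks in Taf5l-KO. Ranked on pileup, the strongest peak stood at 61.8% for RNAP in Taf5l-KO, 20.9% and 23.6% for RNAP-ser2 in Taf6l-KO and wild-type cells, and 57.0% for TAF6L-FB line 15. The cause of these changes was not tested. The TAF6L-FB region stayed at 1 without either line, and TAF5L-FB at 0. Of the settings tried, 30 of 40 for kept peaks, 29 of 35 for gained peaks, 21 of 36 for peak numbers and 32 of 36 for ranks stayed within 1.5 times. For kept and gained peaks, settings that left no peak to compare were not counted, and 0 against 0 counted as unchanged. Those counts were compared without their totals, so these shares can overstate stability. No paired analysis was possible because the labels give no replicate numbers shared between groups and no result comes from a test.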
